A study of Mus musculus with 4 samples.

Results

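Sox10, Erbb3, Foxd3, Cdh19, Tfap2a and Tfap2b are 6 genes of the neural crest and of the Schwann cell precursors that arise from it, and they were taken here by their symbols from 24971 genes counted in mouse neural tube RNA. RNA-seq had been done on 4 pools of neural tubes from E12.5 embryos of the C57BL/6 background. In 2 libraries the embryos were labelled Lbx1Δ/Δ, homozygous for a deletion in Lbx1, and in the other 2 they were labelled wild type (WT). Tubes that shared a genotype and a litter were pooled into each library, and the libraries of each genotype carry the numbers 1 and 2. Sox10 was counted as NM_011437 (chromosome 15), Erbb3 as NM_010153 (chromosome 10) and Foxd3 as NM_010425 (chromosome 4). Cdh19 and Tfap2b lie on chromosome 1 and Tfap2a on chromosome 13. The chromosomes are those of a RefSeq table of GRCm38. The labels do not say which part of Lbx1 was deleted, whether libraries of the same number came from the same litter, or along which levels of the body axis the tubes were taken.

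The neural crest leaves the dorsal edge of the closing neural tube and gives rise to sensory and autonomic ganglia, pigment cells and peripheral glia. Schwann cell precursors are the crest cells that settle on growing nerves, where they depend on neuregulin from the axons, which is read by the receptors ErbB3 and ErbB2. By the stage studied here the trunk crest has left the tube, so that its cells lie in ganglia, nerve roots and skin beside it. Several of the 6 genes are also used inside the tube or in tissue around it, Foxd3 in interneurons, Tfap2a and Tfap2b in dorsal inhibitory interneurons, skin and mesenchyme.

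The libraries held 16853984 to 20579803 counts. Levels are given as CPM, counts per 1000000 counts of the library total. An approximate upper bound for a count of 0, set here at 3 counts for counting error alone, comes to 0.146 to 0.178 CPM. Differences were tested with edgeR's quasi-likelihood test over the 10757 genes that passed a filter on low counts, with Benjamini-Hochberg adjustment at a threshold of 0.05, first between the genotype labels and then between the numbers 2 and 1, and the same 4 libraries serve for both. The spread between these pools is all that the p-values measure. Lbx1 itself was at 112.8 and 386.9 CPM in libraries 1 and 2 labelled Lbx1Δ/Δ and at 39.8 and 81.4 CPM in WT libraries 1 and 2, so the targeted transcript does not check the labels and each direction below is between libraries as labelled. Sox2, a factor of neural progenitors, was at 255 to 300.2 CPM over the 4 libraries, and Col3a1, a collagen of the connective tissue around the tube, at 1641 to 2447 CPM.

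By genotype label, none of the 5 genes that could be tested passed the threshold (0 of 5), and 0 of all 10757 tested genes did (percent called 0), with 55 at an unadjusted p below 0.05 in edgeR, 33 in DESeq2 and 61 in limma-voom. These fits took no account of number, so differences between the numbers counted as spread within a label. The lack of calls by genotype label therefore does not show that levels were equal. By number, Erbb3 was lower and Foxd3 higher in the libraries numbered 2, 2 of the 5 tested genes, beside 25.5% of all tested genes called (2739 genes, 13.3% higher and 12.2% lower). Sox10 did not differ by more than its standard error between the numbers. Cdh19 had no counts in any library, and Tfap2a and Tfap2b had few.

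**Figure D1:**
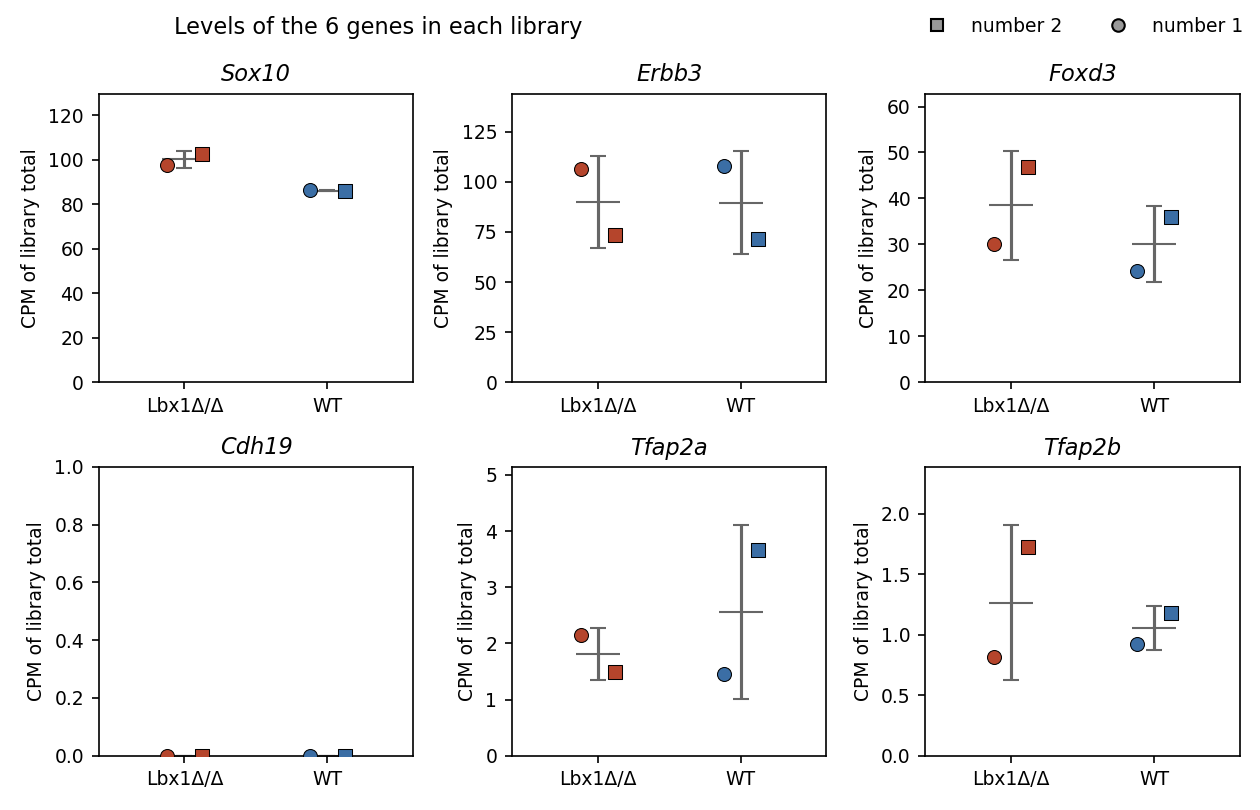
Level of each gene in each library, in CPM of the library total on a linear axis from 0; circles are libraries numbered 1, squares libraries numbered 2, and the horizontal bar and whiskers give the mean ± SD of the 2 libraries of a label. Sox10 sits at 97.6 and 103 CPM under the Lbx1Δ/Δ label, above 86.5 and 85.9 CPM under WT, while Erbb3 and Foxd3 separate by number and Cdh19 lies at 0.

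Sox10 encodes an HMG-box transcription factor that is needed for peripheral glia and pigment cells and, later in development, for oligodendrocytes. It was at 97.6 and 103 CPM in libraries 1 and 2 labelled Lbx1Δ/Δ and at 86.5 and 85.9 CPM in WT libraries 1 and 2. Both libraries labelled Lbx1Δ/Δ were thus above both WT libraries, and the libraries of a label lay close together. The means were 100.2 ± 3.68 CPM in the libraries labelled Lbx1Δ/Δ and 86.2 ± 0.415 CPM in WT (SD, n = 2 each), and the fitted log2 difference of 0.20 (SE 0.15, a ratio of 1.15) did not pass the test (edgeR, adjusted p = 0.9998). Sox10 alone of the 5 tested genes had labels that did not overlap, as did 20.6% of all tested genes, 11.3% with the libraries labelled Lbx1Δ/Δ higher and 9.31% with them lower. In pools of tissue, fewer cells of a type and less RNA per cell cannot be told apart.

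Between libraries of the same number, Sox10 was higher under the Lbx1Δ/Δ label by 0.17 (number 1) and 0.26 (number 2) on the log2 scale. Sox10 was at 94.3 ± 11.9 CPM in the libraries numbered 2 and at 92.0 ± 7.83 CPM in those numbered 1 (SD, n = 2 each), a log2 difference of 0.016 (SE 0.12; edgeR, adjusted p = 0.942). With 1456 to 1780 counts in each library, Sox10 was among the better measured of the 6 genes.

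Erbb3 encodes the neuregulin-binding receptor of crest cells and Schwann cell precursors, which signals through its partner ErbB2. It was at 106 and 73.6 CPM in libraries 1 and 2 labelled Lbx1Δ/Δ and at 108 and 71.5 CPM in WT libraries 1 and 2. Libraries of the same number were nearly level whatever their label, and the 2 labels overlapped. By genotype the log2 difference was −0.0067 (SE 0.30; edgeR, adjusted p = 0.9998), and within numbers 1 and 2 it was −0.021 and 0.043. A difference of the size of this SE could not have been told from 0.

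Between the numbers, Erbb3 was at 72.5 ± 1.54 CPM in the libraries numbered 2 and at 107 ± 1.11 CPM in those numbered 1 (SD, n = 2 each). It fell by 0.58 on the log2 scale (SE 0.10; edgeR, adjusted p = 0.00339), a ratio of 1.49-fold, and by 0.53 within the libraries labelled Lbx1Δ/Δ and 0.59 within WT. The call was lost without WT library 1 (log2 difference −0.58, adjusted p = 0.125) and without library 1 labelled Lbx1Δ/Δ (−0.58, adjusted p = 0.102), which leave a single library numbered 1, and all calls by number then came to 1 and 6 genes.

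Between the numbers, the other receptors of the family were called in both directions. Erbb2, the partner receptor of ErbB3, was at 108 and 68.5 CPM in libraries 1 and 2 labelled Lbx1Δ/Δ and at 109 and 73.5 CPM in WT libraries 1 and 2. It was called lower in the libraries numbered 2 (log2 −0.63, SE 0.11; edgeR, adjusted p = 0.00269). The ratio of Erbb3 to Erbb2 counts was 0.981 and 1.08 in the libraries labelled Lbx1Δ/Δ and 0.986 and 0.972 in WT. Egfr, the receptor of epidermal growth factor, was also called lower (log2 −0.69, adjusted p = 0.0255), and as a gene with several transcripts it may be counted only in part. Erbb4, a neuregulin receptor of neurons, was called higher, at 50.6 and 100.1 CPM in the libraries labelled Lbx1Δ/Δ and 47.6 and 112 CPM in WT (log2 1.09, SE 0.12; edgeR, adjusted p = 0.000404). Of the ligands, Nrg1 and Nrg3 were counted over 12 and 3 transcripts, with 8 to 23 counts of Nrg1 per library and 0 of Nrg3, and Nrg2 and Nrg4 had 13 to 61 counts per library. By number 1 of the 6 tested genes of this list was called higher and 2 lower, beside 13.3% and 12.2% of all tested genes. By genotype label 0 were called, and the median log2 difference was 0.072. That median was −0.057 without library 1 labelled Lbx1Δ/Δ and 0.54 without WT library 2.

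Foxd3 encodes a forkhead factor of crest cells before and during their emigration, and it is also made in dI2 and V1 interneurons of the spinal cord. It was at 30.1 and 46.8 CPM in libraries 1 and 2 labelled Lbx1Δ/Δ and at 24.2 and 36.0 CPM in WT libraries 1 and 2. The libraries numbered 2 were the higher of each label, and the labels overlapped. The means were 38.5 ± 11.8 CPM in the libraries labelled Lbx1Δ/Δ and 30.1 ± 8.34 CPM in WT (SD, n = 2 each), a log2 difference of 0.34 (SE 0.33; edgeR, adjusted p = 0.9998). Within numbers 1 and 2 the difference was 0.32 and 0.38, and it was 0.0018 when library 2 labelled Lbx1Δ/Δ was left out.

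Between the numbers, Foxd3 was at 41.4 ± 7.65 CPM in the libraries numbered 2 and at 27.2 ± 4.21 CPM in those numbered 1 (SD, n = 2 each). It rose by 0.59 on the log2 scale (SE 0.18; edgeR, adjusted p = 0.0389), with 0.63 within the libraries labelled Lbx1Δ/Δ and 0.57 within WT. The call was lost without WT library 1 (log2 0.43, adjusted p = 0.355), without library 1 labelled Lbx1Δ/Δ (0.76, adjusted p = 0.139) and without library 2 labelled Lbx1Δ/Δ (0.41, adjusted p = 0.137).

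Sox10, Erbb3 and Foxd3 have 1 transcript each in the files, so their levels can be set side by side per length. In CPM per kilobase of transcript, Sox10 had 36.0 and 37.9 in libraries 1 and 2 labelled Lbx1Δ/Δ and 31.9 and 31.7 in WT libraries 1 and 2, the highest of these 3 genes in all 4 libraries. Erbb3 had 17.7 and 12.2 under the Lbx1Δ/Δ label and 17.9 and 11.9 under WT, and Foxd3 had 13.0 and 20.1 under the Lbx1Δ/Δ label and 10.4 and 15.5 under WT. Erbb3 therefore stood above Foxd3 in both libraries numbered 1 and below it in both numbered 2. The ratio of Sox10 to Erbb3 counts was 1.40 and 1.20 in the libraries numbered 2 (Lbx1Δ/Δ and WT labels) and 0.919 and 0.803 in those numbered 1. The ratio of Foxd3 to Sox10 counts was 0.456 and 0.419 in the libraries numbered 2 and 0.309 and 0.280 in those numbered 1. The counts of these 3 genes thus did not keep a fixed proportion between pools, and which cells they came from was not tested.

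**Figure D2:**
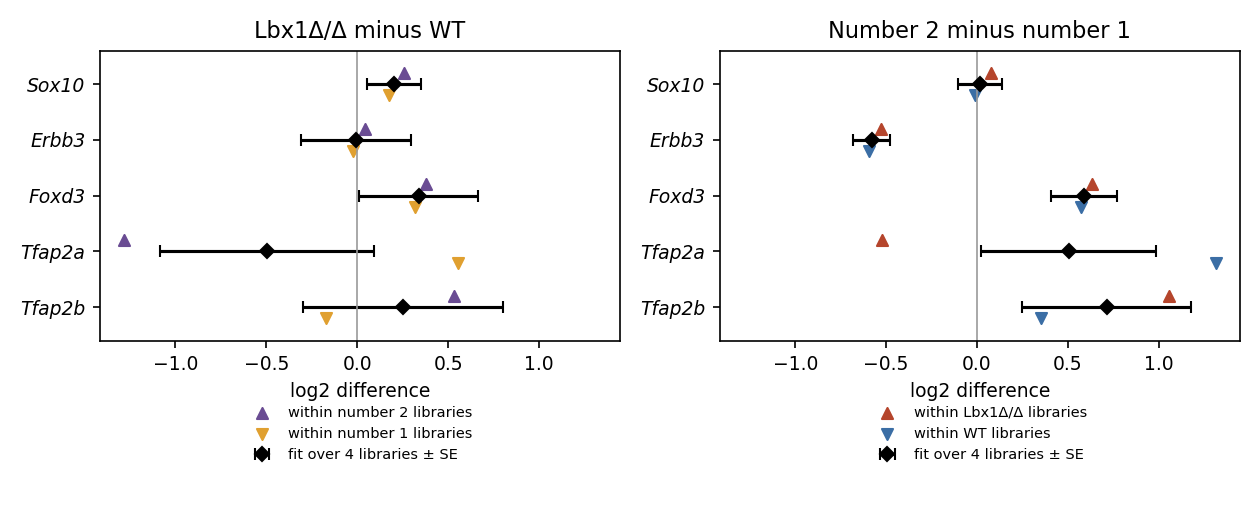
Fitted log2 differences with their SE for the 5 tested genes (diamonds), Lbx1Δ/Δ minus WT on the left and number 2 minus number 1 on the right, with the difference between single libraries within each number or label as triangles. Erbb3 and Foxd3 lie at −0.58 and 0.59 on the right with both triangles beside them, and the triangles of Tfap2a lie on opposite sides of 0 in both panels.

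Cdh19 encodes a cadherin found on Schwann cell precursors. Both of its transcripts had 0 counts in libraries 1 and 2 labelled Lbx1Δ/Δ and 0 counts in WT libraries 1 and 2. Cdh19 was therefore not tested, and the bound for a count of 0 limits reads given to these transcripts rather than the amount of Cdh19 RNA. Of the 106 genes named in the lists used here, 14 had 0 counts in every library. All 14 have several transcripts in the files, and 0 of the 69 listed genes with a single transcript were at 0. Over all genes, a total below 10 counts was found for 61.3% of those with several transcripts and for 41.3% of those with 1.

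Tfap2a and Tfap2b encode AP-2 transcription factors of the crest, and both have 3 transcripts in the files. Nearly all Tfap2a counts fell on NM_001122948, with 36 and 21 counts in libraries 1 and 2 labelled Lbx1Δ/Δ and 29 and 62 in WT libraries 1 and 2, and NM_011547 had 0 to 4. In the GENCODE M21 models, 778 of the 3487 bases of the transcript matched to NM_001122948 are not shared with the model matched to the other 2. All Tfap2b counts fell on NM_001025305, whose model has 370 of 1946 bases of its own. NM_009334 had 0 counts in all 4 libraries although 2522 of its 5863 bases are its own in those models, and NM_001286340, with 0 bases of its own, had 0 counts. The counts of both genes may cover only part of their RNA. Why NM_009334 had no counts was not tested.

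**Figure D3:**
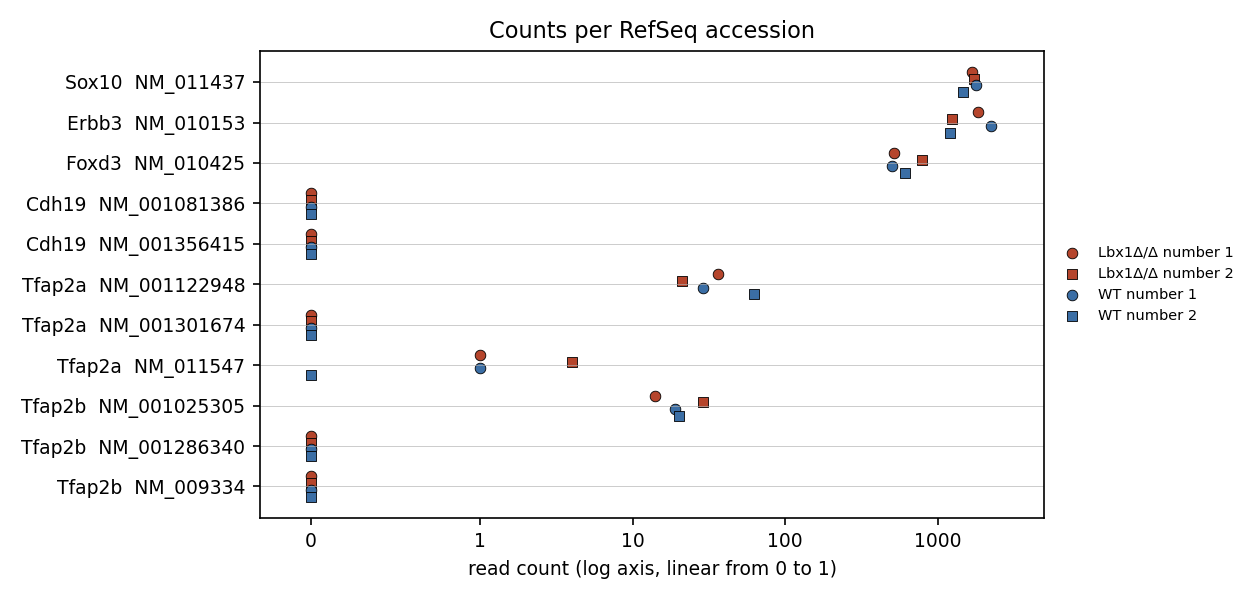
Read counts of each RefSeq transcript of the 6 genes in each library, on a log axis that is linear from 0 to 1. Transcripts of Sox10, Erbb3 and Foxd3 have 498 to 2218 counts, a single transcript each of Tfap2a and Tfap2b has 14 to 62, and both transcripts of Cdh19 have 0.

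Summed over its transcripts, Tfap2a was at 2.15 and 1.48 CPM in libraries 1 and 2 labelled Lbx1Δ/Δ and at 1.46 and 3.66 CPM in WT libraries 1 and 2, from 25 to 62 counts. WT library 2 was the highest and WT library 1 the lowest, so that the WT libraries enclosed the others. The log2 difference by genotype label was −0.50 (SE 0.59; edgeR, adjusted p = 0.9998), and without WT library 2 it was 0.30. By number it was 0.50 (SE 0.48; edgeR, adjusted p = 0.479), and −0.30 without WT library 2. Gm26688, a gene on the opposite strand that overlaps Tfap2a in the GENCODE M21 annotation, had 56 and 87 counts in the libraries labelled Lbx1Δ/Δ and 32 and 52 in WT. The strand setting of the counting is not given, so reads of the 2 genes cannot be told apart where they overlap.

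Tfap2b was at 0.812 and 1.72 CPM in libraries 1 and 2 labelled Lbx1Δ/Δ and at 0.923 and 1.18 CPM in WT libraries 1 and 2, from 14 to 29 counts. The libraries numbered 2 were the higher of each label, and the WT values lay between those labelled Lbx1Δ/Δ. By genotype label the log2 difference was 0.25 (SE 0.55; edgeR, adjusted p = 0.9998), and −0.37 without library 2 labelled Lbx1Δ/Δ. By number it was 0.71 (SE 0.47; edgeR, adjusted p = 0.296). Erbb3, Foxd3 and Tfap2b were the 3 of 5 tested genes whose libraries numbered 2 did not overlap those numbered 1, beside 66.0% of all tested genes, 34.1% with the libraries numbered 2 higher and 31.9% with them lower.

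RefSeq promoter windows of build GRCm38.p6, which is not the mm9 build named for the counts, were used for Foxd3 and Tfap2b because their start sites are those of the counted transcripts in the GENCODE M21 models. Each window runs from 250 bases before the start site to 50 after it, on the plus strand. The Foxd3 window is chr4:99656049-99656348 and the Tfap2b window chr1:19211804-19212103. Capitals mark matches to the homeodomain core TAATTA or TAATTG on either strand, shown because Lbx1 encodes a homeodomain factor.
Foxd3: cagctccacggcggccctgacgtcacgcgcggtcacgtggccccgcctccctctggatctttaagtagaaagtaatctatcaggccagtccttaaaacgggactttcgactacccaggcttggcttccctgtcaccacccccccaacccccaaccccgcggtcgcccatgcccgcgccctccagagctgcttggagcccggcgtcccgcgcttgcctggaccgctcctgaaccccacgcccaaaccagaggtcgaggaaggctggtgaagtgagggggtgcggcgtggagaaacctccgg
Tfap2b: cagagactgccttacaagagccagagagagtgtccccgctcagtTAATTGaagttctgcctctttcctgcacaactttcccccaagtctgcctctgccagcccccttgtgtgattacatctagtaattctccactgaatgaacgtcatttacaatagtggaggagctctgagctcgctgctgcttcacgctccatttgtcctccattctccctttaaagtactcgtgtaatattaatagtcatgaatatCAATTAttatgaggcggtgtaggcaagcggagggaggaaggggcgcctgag
The Tfap2b window held 2 matches that do not overlap, 1 of them across the start site and the other from 206 to 201 bases before it, and 12.4% of 32841 promoter windows of this length held at least 1. Neither window held the AP-2 motif GCCNNNGGC, the SOX motifs ACAAAG and ACAATG or the TATA box TATAAA on either strand, which 16.6%, 28.6% and 13.6% of windows held. The GC content was 65.7% for Foxd3 with 25 CpG sites and 48.3% for Tfap2b with 8, beside medians of 52.7% and 7 over all windows. These matches describe the letters of the windows only.

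Other genes of peripheral glia were measured unevenly. Of 17 listed, 11 were tested, with 9 fitted higher and 2 lower under the Lbx1Δ/Δ label and a median log2 difference of 0.11, beside −0.0026 over all tested genes, and 0 called. The median turned to −0.017 without WT library 1 and to −0.13 without library 2 labelled Lbx1Δ/Δ, with 5 and 4 of the 11 fitted higher. By number 2 were called higher, Fabp7 and Mbp, and 0 lower, beside 13.3% and 12.2% of all tested genes. Fabp7, a lipid-binding protein of peripheral glia and of radial glia, was at 780 and 1275 CPM in libraries 1 and 2 labelled Lbx1Δ/Δ and at 658 and 1209 CPM in WT libraries 1 and 2 (log2 by number 0.77, SE 0.11; edgeR, adjusted p = 0.00159). Mbp, a myelin gene also read from other promoters, has 8 transcripts in the files and is uncertain (log2 by number 0.58, adjusted p = 0.0185). Ngfr, the low-affinity neurotrophin receptor of crest cells, was at 340 and 444 CPM under the Lbx1Δ/Δ label and at 270 and 347 CPM under WT, and did not pass either test (adjusted p = 0.9998 by genotype label and 0.0968 by number). Lgi4, a secreted protein of Schwann cells, was at 20.3 and 21.2 CPM and at 19.0 and 20.0 CPM in the same order, close to level. Fabp7, Sox2 and Pou3f1 are also made in the neural tube itself.

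Of the transcription factors of crest induction and emigration, most were lower in the libraries numbered 2. Of 11 tested 7 were called lower and 0 higher, beside 12.2% and 13.3% of all tested genes. Their median log2 difference was −0.75, beside 0.00021 over all tested genes. By genotype label 0 were called, and the median was −0.11 with all libraries. It was 0.20 without WT library 1 and 0.19 without library 2 labelled Lbx1Δ/Δ. Snai2, a zinc-finger factor of emigration, was at 59.6 and 13.3 CPM in libraries 1 and 2 labelled Lbx1Δ/Δ and at 73.5 and 27.9 CPM in WT libraries 1 and 2 (log2 by number −1.70, SE 0.29; edgeR, adjusted p = 0.00287). Twist1, also a factor of mesenchyme, was at 164 and 41.1 CPM under the Lbx1Δ/Δ label and 186 and 90.6 CPM under WT. Sox9, a relative of Sox10 in crest, cartilage and neural progenitors, was at 306 and 206 CPM under the Lbx1Δ/Δ label and 320 and 230 CPM under WT, and Snai1, Msx1, Msx2 and Id3 were the others called lower. In the same libraries 5 of 9 tested genes of mesenchyme and meninges were called lower (median −0.76, and −0.45 without WT library 1), and 4 of 7 of surface ectoderm (median −1.11), with 0 called higher. The summed level of the mesenchyme list was 4337 and 4878 CPM in the libraries numbered 2 (Lbx1Δ/Δ and WT labels) and 4601 and 6494 CPM in those numbered 1, with Pdgfrb at 0. That of surface ectoderm was 63.5 and 99.8 CPM in the libraries numbered 2 and 123 and 158 CPM in those numbered 1. Trp63, like Pdgfrb a gene with several transcripts, was at 0. By genotype label the median was −0.34 for surface ectoderm (0 fitted higher, 7 lower) and −0.37 for mesenchyme and meninges (1 higher, 8 lower), with 0 called. These medians were 0.135 and −0.026 without WT library 1, and 0.074 and −0.064 without library 2 labelled Lbx1Δ/Δ. The part of mesenchyme and surface ectoderm in the values of Erbb3, Tfap2a and Tfap2b was not tested.

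Several genes of the neurons beside which crest glia lie were higher in the libraries numbered 2. Of 9 tested genes of sensory ganglion neurons 5 were called higher and 1 lower, beside 13.3% and 12.2% of all tested genes. The median log2 difference was 0.65 by number and 0.21 by genotype label. The median by genotype label was −0.082 without WT library 1 and −0.11 without library 2 labelled Lbx1Δ/Δ. Isl1, a LIM-homeobox factor of sensory and motor neurons, was at 123 and 204 CPM in libraries 1 and 2 labelled Lbx1Δ/Δ and at 123 and 189 CPM in WT libraries 1 and 2 (log2 by number 0.65, SE 0.096; edgeR, adjusted p = 0.00147). Pou4f1, a homeobox factor of sensory neurons and of dorsal interneurons, was at 134 and 277 CPM under the Lbx1Δ/Δ label and 126 and 225 CPM under WT. Ntrk3, a neurotrophin receptor counted over 2 transcripts, and Avil were also called higher. Runx1 and Prph, which have several transcripts each in the files, were at 0. The summed level of the list was 917 and 813 CPM in the libraries numbered 2 and 572 and 557 CPM in those numbered 1, and Sox10 stayed at 103 and 85.9 CPM beside 97.6 and 86.5 CPM in the same libraries.

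The lists of interneuron classes in which Foxd3, Tfap2a and Tfap2b are also made share genes with each other and with the sensory list. Of 5 tested genes of dI2 and V1 interneurons 3 were called higher and 0 lower (median log2 difference 0.73). Over all tested genes 13.3% were called higher and 12.2% lower by number. The 3 called genes were Lhx1 and Lhx5, which the dorsal inhibitory list also holds, and Pou4f1, which the sensory list holds. The 2 genes in no other of these lists had lower fitted values in the libraries numbered 2 and did not pass the test. En1, a factor of V1 interneurons, was at 22.0 and 14.8 CPM in libraries 1 and 2 labelled Lbx1Δ/Δ and at 24.0 and 20.1 CPM in WT libraries 1 and 2 (edgeR, adjusted p = 0.143). Foxp2, a forkhead factor with 3 transcripts in the files, had 40 and 24 counts under the Lbx1Δ/Δ label and 37 and 11 under WT (edgeR, adjusted p = 0.154). Of 9 tested genes of dorsal inhibitory interneurons 7 were called higher and 0 lower (median 1.11), among them Pax2, at 87.3 and 210 CPM under the Lbx1Δ/Δ label and 89.8 and 178 CPM under WT. By genotype label 0 genes of either list were called. How much of the Foxd3, Tfap2a and Tfap2b counts came from these neurons was not tested.

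Genes of other crest derivatives and of the oligodendrocyte lineage were low or mixed. Of 8 melanoblast genes 4, Mitf, Tyr, Tyrp1 and Kit, were at 0 and 3 were tested, with 0 called. These 4 genes have several transcripts in the files, so their counts of 0 do not show that their RNA was absent. Dct, an enzyme of pigment synthesis, was at 6.09 and 0.890 CPM in libraries 1 and 2 labelled Lbx1Δ/Δ and at 5.15 and 3.48 CPM in WT libraries 1 and 2. Of 7 tested genes of autonomic and enteric neurons 1 was called higher and 2 lower by number. Over all tested genes 13.3% were called higher and 12.2% lower. Dbh, the enzyme of noradrenaline synthesis, was at 17.2 and 4.87 CPM under the Lbx1Δ/Δ label and 17.1 and 3.48 CPM under WT (log2 by number −2.05, SE 0.23; edgeR, adjusted p = 0.000527), and Hand2, a factor of sympathetic neurons, had 118 and 2 counts and 187 and 26 counts in the same order. Ret, a receptor of enteric and sensory neurons, was the gene called higher (adjusted p = 0.047), and it has several transcripts. Of 6 tested genes of the oligodendrocyte lineage, a later site of Sox10 and Erbb3, 2 were called higher and 0 lower. Whether these counts came from glia was not tested. Olig1 had 9 and 201 counts under the Lbx1Δ/Δ label and 10 and 128 under WT (log2 by number 4.24, SE 0.39; edgeR, adjusted p = 0.000238), and Olig2 was at 4.35 and 7.95 CPM and at 3.50 and 6.67 CPM in the same order.

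**Figure D4:**
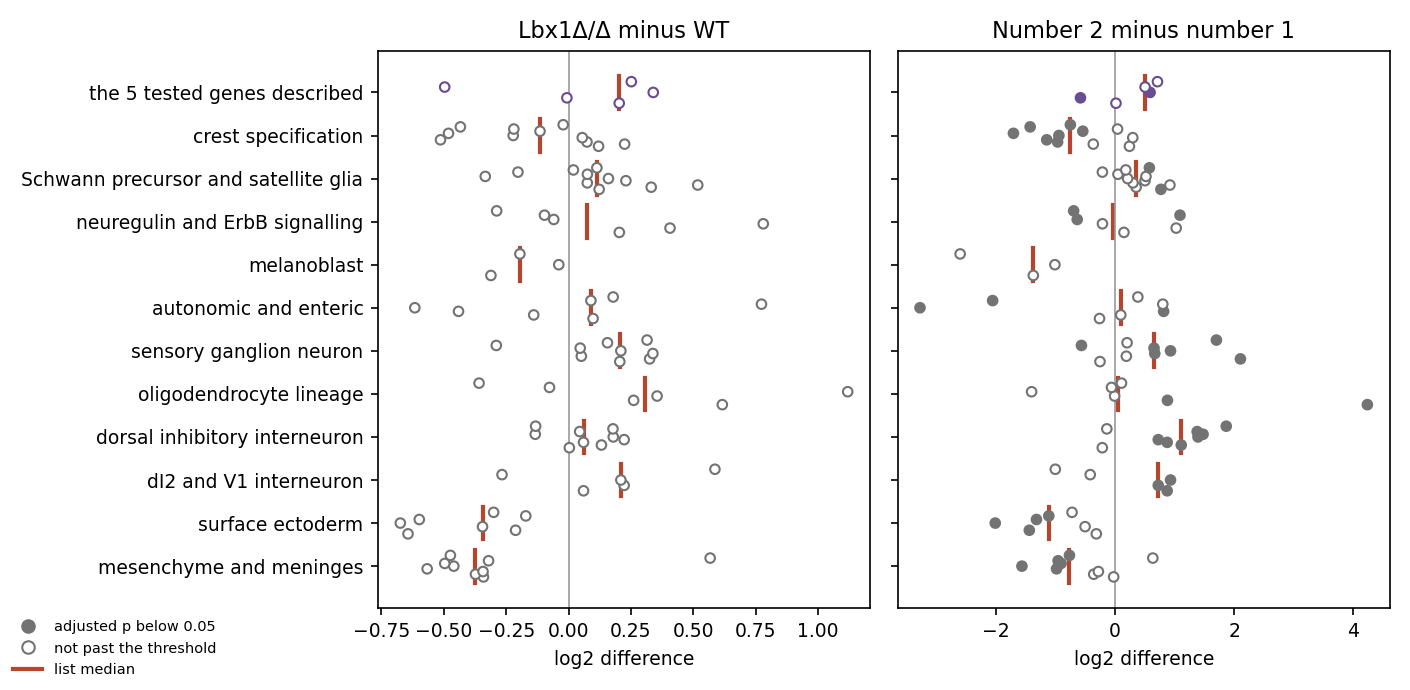
Fitted log2 difference of each tested gene of each list, by genotype label on the left and by number on the right with different axis ranges; filled points passed an adjusted p of 0.05 and the bar is the list's median. No point is filled on the left, and on the right the medians run from −1.37 for the melanoblast list to 1.11 for dorsal inhibitory interneurons.

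The counts called and the medians by number changed when single libraries were left out. Without WT library 1, and likewise without library 1 labelled Lbx1Δ/Δ, 0 genes of each list were called. Leaving out WT library 2 left a single library numbered 2. More genes of several lists were then called, among them the melanoblast, surface ectoderm, mesenchyme and peripheral glia lists. Without that library the median for peripheral glia was 0.51, against 0.35 with all libraries. Of the 11 glia genes 10 were fitted higher there and 1 lower. Surface ectoderm had a median of −1.30, against −1.11. In that setting the medians were 0.86 for dI2 and V1 interneurons and −0.66 for crest specification, against 0.73 and −0.75 with all libraries. Those of the mesenchyme, neuregulin and autonomic lists were −0.92, −0.13 and 0.021, against −0.76, −0.030 and 0.097. Without library 2 labelled Lbx1Δ/Δ, 1 gene of the oligodendrocyte list was called higher against 2, 4 of the sensory list against 5 and 2 of the autonomic list against 1, and 1 gene of the neuregulin list was called lower against 2. The melanoblast median of −1.37 was −2.68 without WT library 2 and −0.69 without library 2 labelled Lbx1Δ/Δ.

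The genes most like each of the 5 by level pattern were those at the smallest Euclidean distance between centred profiles of log2(CPM + 0.5) over the 4 libraries, among 9687 other tested genes with a mean of at least 1 CPM. For Sox10 they were Ccdc22, Chst12 and Ell, at distances of 0.021 to 0.033. For Erbb3 they were Chd1l, Pbx2 and Txndc5 (0.031 to 0.035), and for Foxd3 they were Mien1, Pip5kl1 and Cp (0.034 to 0.044). For Tfap2a they were Vsig2, Nlrp5-ps and Gm3704 (0.17 to 0.21), and for Tfap2b they were Kcnab1, Gm15743 and Gfra3 (0.042 to 0.054). With 4 libraries many genes share any pattern. Among the 5 genes themselves, the nearest pair was Foxd3 and Tfap2b, at a distance of 0.32, with Tfap2b at rank 711 from Foxd3 and Foxd3 at rank 939 from Tfap2b. Sox10 was at 0.62 from Erbb3 and 0.58 from Foxd3, and Erbb3 at 1.20 from Foxd3.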

How the data were processed

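The build mm9 and the tools TopHat2 2.1.1, featureCounts and edgeR are named in the submitters' processing notes. Not given in the sources used here: annotation, strand setting, and how reads shared by transcripts were handled. The authors deposited whole-number counts for 41411 RefSeq transcripts in each of 4 libraries. Symbols came from a RefSeq table of GRCm38 (41218 transcripts) and GENCODE M21 (97), and 96 transcripts stayed unnamed. Counts were summed per symbol. Genes were filtered with filterByExpr (minimum count 10, minimum total 15), scaled by TMM and tested two-sided with edgeR 4.0.16 (glmQLFit, glmQLFTest) without covariates, by genotype label and by number, and the test was tried on simulated counts. SE is the log2 difference over the root of F. Differences between single libraries used log2 CPM with 0.5 counts added. DESeq2 1.42.0, limma-voom 3.58.1, other scalings and filters, the transcript with the most counts alone, a replicate block and leaving out each library were alternatives.

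The 6 genes and the lists were chosen with earlier results of these data known. Named genes were the 6, Lbx1, the 4 highest genes of each list by mean CPM, any called list gene, and the 3 genes nearest in pattern. Others, such as Lgi4, Gm26688, Nrg1, Nrg4, Foxp2 and further genes at 0, were named after their values were seen. Some genes of the lists enter the counts and are not reported here by name.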

Additional observations from a re-analysis of the deposited data

Results flagged for a closer look

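In 3 of the 5 tested genes the difference between the libraries labelled Lbx1Δ/Δ and WT had opposite signs in the separate numbers, on the log2 scale. Tfap2a differed by −1.29 in number 2 and by 0.55 in number 1, Tfap2b by 0.53 and −0.17, and Erbb3 by 0.043 and −0.021. Each rests on a single library per label and number, so the difference between numbers was not tested.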

How the results depend on the processing

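By genotype label, 0 genes were called under 12 of 13 alternatives and 92 with the replicate block, a fit in which Sox10 and Foxd3 had log2 differences of 0.20 and 0.34 (edgeR, adjusted p = 0.36 and 0.329) and none of the 5 tested genes was called. Lbx1 was among the 92, with a log2 difference of 1.88 (edgeR, adjusted p = 1.19e-06). The labels do not state that a number is shared between genotypes. Over all tested genes, the deviations of same-numbered libraries from their label's mean correlated at 0.623, a hint from the data with 2 pairs only. The Erbb3 difference by genotype label was 0.0091 with upper-quartile scaling, 0.0046 with library totals and 0.0039 with CPM above 1 in at least 2 libraries, a change of sign at about 0 whose cause was not tested. Leaving out each library in turn gave −0.30 to 0.34 for Erbb3, 0.0018 to 0.65 for Foxd3, 0.18 to 0.24 for Sox10, −0.999 to 0.30 for Tfap2a and −0.37 to 0.70 for Tfap2b by genotype label. By number it gave −0.58 to −0.57 for Erbb3, 0.41 to 0.76 for Foxd3, −0.0997 to 0.13 for Sox10, −0.30 to 1.03 for Tfap2a and 0.44 to 0.95 for Tfap2b, with 1 to 3917 genes called. These fits take the lone library of a group to vary like the other group. Scaled to the TMM total, the Sox10 level in WT was 86.7 CPM in place of 86.2, more than its SD, and the other 9 levels of the 5 genes moved by less. The other alternatives kept the sides of the threshold of all 5 by number, apart from Tfap2b in DESeq2. There Tfap2b had no adjusted p and so no side (Wald test, unadjusted p = 0.356). The limit of depth is at Tfap2a and Tfap2b, with 14 to 62 counts a library. The smallest p that an exact two-sided permutation test of 2 against 2 libraries can give is 0.333.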
